A study of Mus musculus with 60 samples.

Results

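Il4ra and Il21r are neighbouring cytokine receptor genes on mouse chromosome 7, and the locus described here is the 100 kb stretch chr7:132680000-132779999 (mm9) taken to hold them. Its members are all junctions that the authors' lists place in this stretch, 213 of the 1219247 junctions in the series and of the 550589 that count as genome-wide, meaning outside chromosome 15 (which carries the bait), the mitochondrial genome, chromosome Y and the immunoglobulin loci. The stretch is set by its coordinates, but it was chosen with earlier results of these data known. The p-values below do not allow for that choice. The junctions were mapped by LAM-HTGTS. This assay amplifies outwards from a chosen DNA break (the bait) and sequences whatever DNA became joined to it. Each line of a list is such a joint, with a position and a strand. The level used throughout is the number of junctions in the locus per 10000 genome-wide junctions of the same library, called the junction rate.

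The 60 libraries came from CH12F3, a mouse B-lymphoma line, and every one had received anti-CD40, IL-4 and TGF-β for 72 h. Tazemetostat and valemetostat, compounds directed at the histone methyltransferase EZH2, were set against the solvent DMSO in 4 backgrounds. Cells without DNA ligase 4 (Lig4-KO) had 5 tazemetostat, 5 valemetostat and 5 DMSO libraries, and cells without AID (AID-KO) had 4, 3 and 5. AID-proficient cells given the PI3Kδ inhibitor idelalisib (WT+idelalisib) had 5, 5 and 5, and AID-proficient cells without it (WT) had 5, 8 and 5. The labels give no doses, no number of knockout clones and no statement that replicates were separate cultures, so the p-values below speak of the spread from library to library alone, and that spread may be technical.

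The interleukin-4 receptor alpha chain, made from Il4ra, pairs with the common gamma chain to bind IL-4 and signals mainly through STAT6. It also forms the receptor for IL-13. The interleukin-21 receptor, made from Il21r, pairs with the same common gamma chain and signals mainly through STAT3. IL-4 was part of the stimulus in all 12 groups. AID (activation-induced cytidine deaminase) deaminates cytosines in the immunoglobulin switch regions and, at lower frequency, in other transcribed genes of B cells. DNA ligase 4 seals breaks in classical end joining. In a gene table of a later build (GRCm38.p6), used for names and order only, the pseudogene Gm4973, Il4ra, Il21r and Gtf3c1 follow each other in this order along chromosome 7, so Il4ra lies towards the lower and Il21r towards the higher positions in that build. No mm9 annotation was used here, and no junction is assigned to an exon or intron.

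The promoters of the 2 members are shown because they are the sequences from which these genes are transcribed, and transcribed DNA is where AID acts. Both come from RefSeq (GRCm38.p6, plus strand) and run from 250 bases before to 50 bases after the gene start, at chr7:125552021-125552320 for Il4ra and chr7:125603179-125603478 for Il21r. Capitals mark AGCT, the core of the sequence that AID prefers.
Il4ra: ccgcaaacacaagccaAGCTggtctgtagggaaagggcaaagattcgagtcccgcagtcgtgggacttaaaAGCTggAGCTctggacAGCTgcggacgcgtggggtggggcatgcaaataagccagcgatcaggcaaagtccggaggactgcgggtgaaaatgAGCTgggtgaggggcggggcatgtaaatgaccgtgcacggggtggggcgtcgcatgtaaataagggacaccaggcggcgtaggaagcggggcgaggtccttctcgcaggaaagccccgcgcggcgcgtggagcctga
Il21r: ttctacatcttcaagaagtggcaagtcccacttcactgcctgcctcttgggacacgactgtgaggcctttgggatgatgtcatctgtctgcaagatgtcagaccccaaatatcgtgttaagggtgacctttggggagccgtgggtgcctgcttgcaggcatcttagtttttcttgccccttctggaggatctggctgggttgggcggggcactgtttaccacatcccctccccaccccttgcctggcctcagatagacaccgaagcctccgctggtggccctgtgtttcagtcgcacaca
AGCT reads the same on both strands and its matches cannot overlap. It occurs 5 times in the Il4ra sequence and 0 times in that of Il21r. Among all 32851 promoters listed there, 77.6% hold at least 1 AGCT and 2.65% hold 5 or more. A match is a description of the letters in this window, and since the builds differ no junction can be set on these sequences.

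Depth ran from 35258 to 56900 junctions per library in Lig4-KO and from 7419 to 22089 in the other backgrounds. Igh held 0.00747% to 0.0628% of the junctions in AID-KO libraries, against 0.945% to 3.95% in all others, which is the check of the AID-KO label. The read names gave 6 sequencing runs: run 5 held all Lig4-KO libraries, runs 3 and 4 all AID-KO libraries, and run 1 WT DMSO and WT tazemetostat. Run 2 held valemetostat in WT and WT+idelalisib, and run 6 the other WT+idelalisib libraries. No run held 2 genotypes, so genotype and run cannot be told apart.

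Junctions in the locus were rare outside Lig4-KO. Of the 213 junctions, 171 (80.3%) came from the 15 Lig4-KO libraries, which held 39.7% of the genome-wide junctions. AID-KO gave 6, WT+idelalisib 20 and WT 16. Each of the 15 Lig4-KO libraries held between 4 and 20 junctions, whereas the other 45 libraries held between 0 and 4 and 18 of them none. In those 45 libraries a count of 0 allows up to 3 junctions, which is a rate of 2.07 to 6.74 depending on the library, so most single values there are not distinguishable from each other at this depth.

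Without DNA ligase 4 the junction rate of the locus was higher than in WT. In Lig4-KO DMSO the 5 libraries stood at 5.91, 9.22, 11.2, 13.3 and 14.0 per 10000, against 0, 0, 0, 1.65 and 2.85 in WT DMSO. The lowest Lig4-KO DMSO library was above the highest WT DMSO library. The mean was 10.7 ± 3.29 for Lig4-KO DMSO, against 0.901 ± 1.30 for WT DMSO (SD, n = 5 each), a difference of 9.84 (two-sided exact permutation test, p = 0.00794, the smallest this design allows, adjusted p = 0.0238 over 3 comparisons). WT DMSO held only 3 junctions in the locus, so the ratio of the pooled rates, 11.2, had a 95% counting interval from 3.70 to 55.6. Genome-wide junctions numbered 11269 to 16269 of 35258 to 46561 per library in Lig4-KO DMSO, and 6046 to 7013 of 9946 to 11953 in WT DMSO. They were a smaller share in Lig4-KO DMSO, so a ratio per all junctions would be smaller. With all junctions more than 1 Mb from the bait as denominator, the difference was 8.65.

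The same contrast was also larger than the spread between libraries with all treatments joined. Lig4-KO libraries averaged 7.87 ± 3.07 (n = 15) and WT libraries 1.45 ± 1.37 (n = 18), from 171 and 16 junctions. Within the 3 treatments the mean difference was 6.48, with Lig4-KO higher in 3 of 3 (permutation test with 100000 resamples within treatments, p = 1e-05, the smallest they can give, adjusted p = 5e-05 over 5 comparisons). The ratio of the pooled rates was 5.75 (95% counting interval 3.44 to 10.3). Here too genome-wide junctions were a smaller share of all junctions in Lig4-KO than in WT, so a ratio per all junctions would be smaller. Depth does not overlap between these backgrounds, and its part in the result was not tested.

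The difference between Lig4-KO and WT was also fitted over the whole genome. In a limma voom fit of junction tallies in 580 windows of 100 kb, the window of the locus had a log2 fold change of 2.97 ± 0.50 (SE) in Lig4-KO DMSO against WT DMSO (adjusted p = 3.8e-07 over all windows). The fit takes windows with a mean tally of at least 1 per library, and the locus, at 3.55, is in it through Lig4-KO alone, since its mean over the other 45 libraries was 0.933. Lig4-KO libraries are deeper, so a window can enter in this way without a difference in rate, but the filter favours windows that are higher in Lig4-KO. The value therefore describes the size of the difference and is no further support for it. The median over the 580 windows was -0.05. In this comparison 7.59% of the windows passed an adjusted p of 0.05, 32 (5.52%) higher and 12 lower in Lig4-KO. That background moved with the filter, to 44 higher and 5 lower of 84 windows at a mean tally of at least 2, and to 27 higher and 13 lower of 1664 with only these groups in the fit. With TMM scaling 121 windows were higher and 4 lower, the median shifted by 0.90, and the locus lay 3.02 above the median under either scaling. With an offset in proportion to depth, chosen after seeing the data, 57 windows were higher and 4 lower. The median was then 0.47 and the log2 fold change of the locus 3.39. By junction tally the locus ranked 35 in Lig4-KO and 299 in the other libraries, among 23949 windows of 100 kb with a junction.

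**Figure D1:**
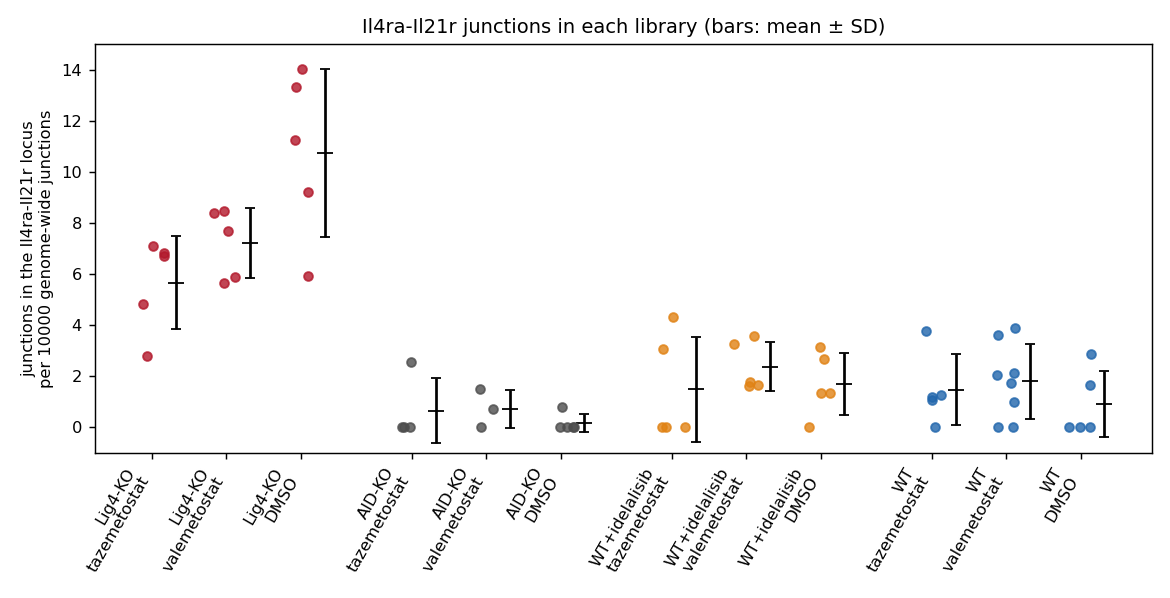
Junctions in the Il4ra-Il21r locus per 10000 genome-wide junctions (vertical axis) in each of the 60 libraries, by background and treatment. Points are libraries and bars give the mean ± SD of each group; the 15 Lig4-KO libraries lie between 2.80 and 14.0, and the others between 0 and 4.29.

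Without AID the locus held few junctions, but the difference from WT did not pass. The AID-KO DMSO libraries stood at 0, 0, 0, 0 and 0.800, from 1 junction in all. AID-KO tazemetostat libraries stood at 0, 0, 0 and 2.56, and AID-KO valemetostat libraries at 0, 0.690 and 1.47. These ranges overlap those of WT. In DMSO the means were 0.160 ± 0.358 in AID-KO and 0.901 ± 1.30 in WT (n = 5 each, exact permutation test, p = 0.444, adjusted p = 0.444). Over the 3 treatments they were 0.460 ± 0.814 in AID-KO (n = 12) and 1.45 ± 1.37 in WT (n = 18), with AID-KO lower in 3 of 3 treatments and a mean difference of -0.88 (permutation test, p = 0.0642, adjusted p = 0.161). The ratio of the pooled rates was 0.415, with a 95% counting interval from 0.133 to 1.12. Without WT DMSO replicate 4 the difference in DMSO was -0.25, against -0.74 with all libraries. With the locus widened by 20 kb on each side, which gave 3 junctions in AID-KO DMSO and 6 in WT DMSO, the difference was -1.25 and passed (exact permutation test, adjusted p = 0.0238).

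Idelalisib did not separate the WT libraries. The WT+idelalisib DMSO libraries stood at 0, 1.32, 1.35, 2.65 and 3.12, against 0, 0, 0, 1.65 and 2.85 in WT DMSO. The means were 1.69 ± 1.23 in WT+idelalisib and 0.901 ± 1.30 in WT (n = 5 each, exact permutation test, p = 0.444, adjusted p = 0.444). Over the 3 treatments they were 1.84 ± 1.44 in WT+idelalisib (n = 15) and 1.45 ± 1.37 in WT (n = 18), a mean difference of 0.459 (permutation test, p = 0.368, adjusted p = 0.459). The ratio of the pooled rates over treatments was 1.35 with a 95% counting interval from 0.666 to 2.79. Leaving out single libraries moved the difference in DMSO, 0.787, between 0.429 (without WT+idelalisib DMSO replicate 2) and 1.27 (without WT DMSO replicate 4). Within run 2, where both were treated with valemetostat, WT+idelalisib averaged 2.37 and WT 1.79 (n = 5 and 8, exact permutation test, p = 0.451).

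The order of the group means, from 10.7 downwards, was Lig4-KO DMSO, Lig4-KO valemetostat, Lig4-KO tazemetostat, WT+idelalisib valemetostat, WT valemetostat, WT+idelalisib DMSO, WT+idelalisib tazemetostat, WT tazemetostat, WT DMSO, AID-KO valemetostat, AID-KO tazemetostat and AID-KO DMSO. From the fourth group on, each gap between neighbours was between 0.0177 and 0.574, less than the SD of either group except for the last step, where AID-KO tazemetostat exceeded AID-KO DMSO by 0.479 (SD 1.28 and 0.358). The step from Lig4-KO tazemetostat down to WT+idelalisib valemetostat was 3.28.

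In Lig4-KO cells the locus had a lower mean rate with either EZH2-directed compound than with DMSO, but neither difference passed the adjusted threshold. Lig4-KO tazemetostat libraries stood at 2.80, 4.84, 6.69, 6.81 and 7.11, against 5.91, 9.22, 11.2, 13.3 and 14.0 in Lig4-KO DMSO. The groups overlapped through 1 DMSO library, replicate 4 at 5.91. The means were 5.65 ± 1.83 with tazemetostat and 10.7 ± 3.29 with DMSO (n = 5 each), a difference of -5.09 (exact permutation test, p = 0.0317, adjusted p = 0.222 over 8 comparisons). Counting error alone put the ratio of the pooled rates, from 40 junctions with tazemetostat and 75 with DMSO, at 0.529 (95% interval 0.351 to 0.787).

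Valemetostat lay between them. Lig4-KO valemetostat libraries stood at 5.64, 5.87, 7.69, 8.37 and 8.48, with a mean of 7.21 ± 1.36 against 10.7 ± 3.29 in Lig4-KO DMSO (n = 5 each, difference -3.53, exact permutation test, p = 0.0556, adjusted p = 0.222). The ratio, from 56 junctions with valemetostat and 75 with DMSO, was 0.684 (95% counting interval 0.475 to 0.979). All 15 of these libraries shared run 5. In the window fit the log2 fold changes were -0.90 ± 0.42 (SE) for tazemetostat and -0.51 ± 0.40 for valemetostat (limma, adjusted p = 0.426 and 0.802), where the medians over the 580 windows were 0.13 and 0.09. In the tazemetostat comparison 0.69% of windows passed, 4 in all. For valemetostat limma voom called 0 windows and limma trend 0, with 58 at an unadjusted p under 0.05.

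In the other backgrounds no difference between a compound and DMSO passed. WT tazemetostat libraries stood at 0, 1.06, 1.18, 1.27 and 3.77 (mean 1.46 ± 1.39), and WT valemetostat libraries ran from 0 to 3.89 with a median of 1.88 (mean 1.79 ± 1.46, n = 8), against a WT DMSO mean of 0.901 ± 1.30 (n = 5). The differences of 0.555 and 0.892 had exact permutation p = 0.556 and 0.281 (adjusted p = 0.741 and 0.6). WT+idelalisib tazemetostat libraries stood at 0, 0, 0, 3.07 and 4.29, and WT+idelalisib valemetostat libraries at 1.63, 1.64, 1.76, 3.26 and 3.56. Every WT+idelalisib valemetostat library held a junction, whereas 3 of the 5 tazemetostat libraries held none. Their differences from WT+idelalisib DMSO were -0.21 and 0.679 (exact permutation test, p = 0.873 and 0.365, adjusted p = 0.873 and 0.6).

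In AID-KO the differences from DMSO were 0.479 for tazemetostat and 0.561 for valemetostat (exact permutation test, p = 0.722 and 0.375, adjusted p = 0.825 and 0.6), from 2 junctions with tazemetostat, 3 with valemetostat and 1 with DMSO. Within run 4 tazemetostat averaged 0.639 and DMSO 0 (n = 4 each, exact permutation test, p = 1). Within run 3 valemetostat averaged 0.721 (n = 3) and the only DMSO library stood at 0.800, a difference of -0.079, opposite to that over all AID-KO DMSO libraries. Joined over the 4 backgrounds, the mean difference was -1.07 for tazemetostat, with 2 backgrounds higher and 2 lower (permutation test, p = 0.119, adjusted p = 0.198), and -0.35 for valemetostat, with 3 higher and 1 lower (p = 0.541 by permutation, adjusted p = 0.541). Whether the change with either compound differed between Lig4-KO and the other backgrounds was not tested.

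The 2 compounds, compared directly in the 4 backgrounds, did not separate at this locus. Tazemetostat minus valemetostat was -1.56 in Lig4-KO, -0.08 in AID-KO, -0.89 in WT+idelalisib and -0.34 in WT (exact permutation test, adjusted p = 0.667, 1, 0.778 and 0.925 over 4 pairs). On the log2 scale of the window fit, the 95% interval of the difference ran from -1.21 to 0.45 in Lig4-KO, from -2.25 to 0.13 in WT+idelalisib and from -1.23 to 0.98 in WT. None of these 3 passed (limma, adjusted p from 0.912 to 0.988), and in the WT pair 0.172% of the windows did. A log2 difference of -1 lies inside all 3 intervals. In AID-KO, where the locus was under the minimum of the fit, the ratio of the pooled rates was 0.985 with a 95% counting interval from 0.0823 to 8.60. The labels state no dose for either compound, so matching of doses is unknown, and of these 4 pairs only that in Lig4-KO shared a run.

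**Figure D2:**
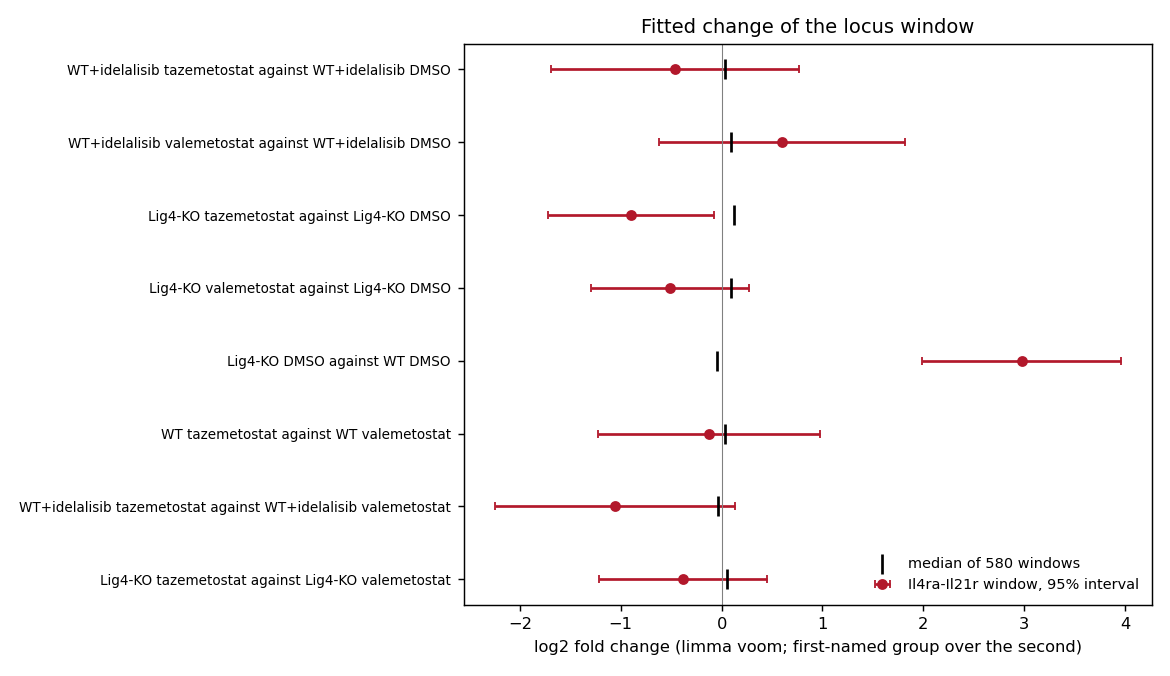
Log2 fold change of the 100 kb window that is the locus in the 8 comparisons of the limma voom fit whose own groups reach a mean tally of 1 there (horizontal axis, first-named group over the second). Red points with bars give the value and its 95% interval, and black ticks the median of the 580 windows; only Lig4-KO DMSO against WT DMSO, at 2.97, was called.

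Compared with its neighbourhood in the same libraries, the locus held more junctions in Lig4-KO, WT+idelalisib and WT. The flanks are the 500 kb on each side, expressed per 100 kb. The locus was chosen with earlier results of these data known, which the p-values here do not allow for. In Lig4-KO the locus had 7.87 ± 3.07 junctions per 10000 and its flanks 0.612 ± 0.170 (n = 15), with the locus higher in 15 of 15 libraries (two-sided exact sign-flip permutation test, p = 6.1e-05, which is the lowest that 15 libraries allow, adjusted p = 0.000244 over 4 backgrounds). In WT+idelalisib the locus had 1.84 ± 1.44 and its flanks 0.595 ± 0.299 (n = 15), with the locus higher in 11 of 15 libraries (exact sign-flip permutation test, p = 0.00458, adjusted p = 0.00916). In WT the locus had 1.45 ± 1.37 and its flanks 0.607 ± 0.296 (n = 18), with the locus higher in 12 of 18 (exact sign-flip permutation test, p = 0.0204, adjusted p = 0.0272).

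In AID-KO the locus had 0.460 ± 0.814 and its flanks 0.714 ± 0.372, with the locus higher in 4 of 12 libraries (exact sign-flip permutation test, p = 0.293, adjusted p = 0.293). Whether the excess over the flanks differed between AID-KO and WT was not tested. The flanks themselves had similar rates in the 4 backgrounds, between 0.595 and 0.714 per 100 kb.

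**Figure D3:**
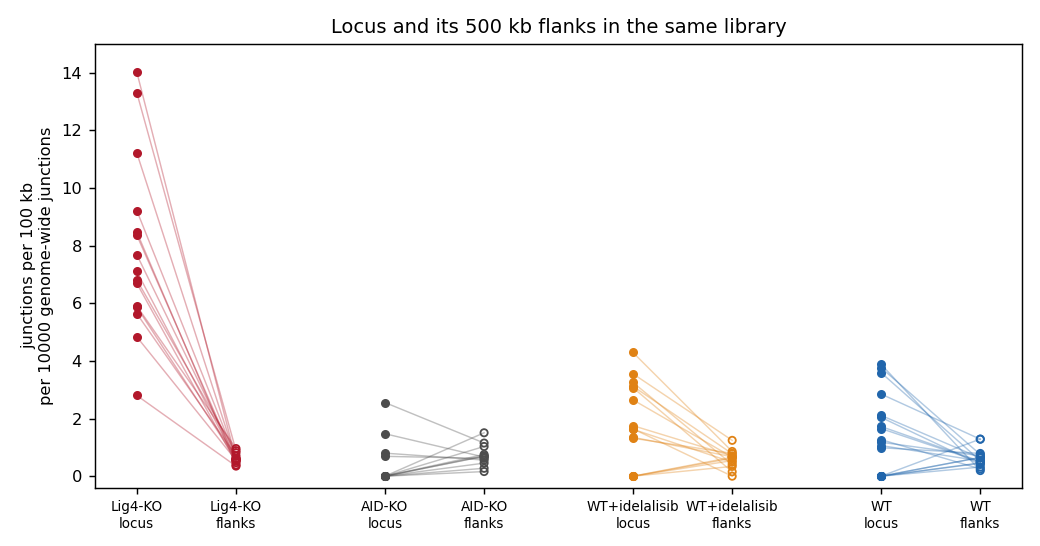
Junctions per 100 kb and per 10000 genome-wide junctions (vertical axis) in the locus (filled points) and in its 500 kb flanks (open points), joined by a line for each library. In all 15 Lig4-KO libraries the locus lies above its flanks, and in AID-KO it does so in 4 of 12.

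Within the locus the junctions were concentrated in the upper 50 kb, towards the Il21r side. The lower 50 kb held 19 junctions and the upper 50 kb held 194. The split was 9 and 162 in Lig4-KO, 4 and 2 in AID-KO, 3 and 17 in WT+idelalisib, and 3 and 13 in WT. By 10 kb bins, 123 junctions lay in chr7:132740000-132749999 and 55 in chr7:132750000-132759999, whereas each of the other 8 bins held between 2 and 7.

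A cluster of 6 kb, chr7:132745000-132750999, held 161 of the 213 junctions (75.6%, exact binomial 95% interval 69.2% to 81.2%). It is the run of neighbouring 1 kb bins with at least 5 junctions around the highest bin, and was delimited after the positions were seen, so its counts are a description and carry no test. Its highest 1 kb bins started at 132750000, 132747000 and 132748000 with 45, 41 and 41 junctions, followed by 132749000 with 16 and 132746000 with 12. The density over all libraries was 26.8 junctions per kb in the cluster and 0.553 per kb in the other 94 kb.

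Lig4-KO, WT+idelalisib and WT had junctions in the cluster, and AID-KO had none. It held 137 of 171 Lig4-KO junctions in the locus (80.1%), 15 of 20 in WT+idelalisib (75%), 9 of 16 in WT (56.3%) and 0 of 6 in AID-KO. Per 10000 genome-wide junctions the cluster had a rate of 6.27 in Lig4-KO, 1.38 in WT+idelalisib, 0.766 in WT and 0 in AID-KO. The 0 among the 106137 genome-wide junctions of AID-KO allows a rate of up to 0.283. Every Lig4-KO library had between 3 and 18 junctions in the cluster, 10 of 15 WT+idelalisib and 7 of 18 WT libraries had any, and 0 of 12 AID-KO libraries did. Outside the cluster the locus rates were 1.56 in Lig4-KO, 0.565 in AID-KO, 0.461 in WT+idelalisib and 0.596 in WT.

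**Figure D4:**
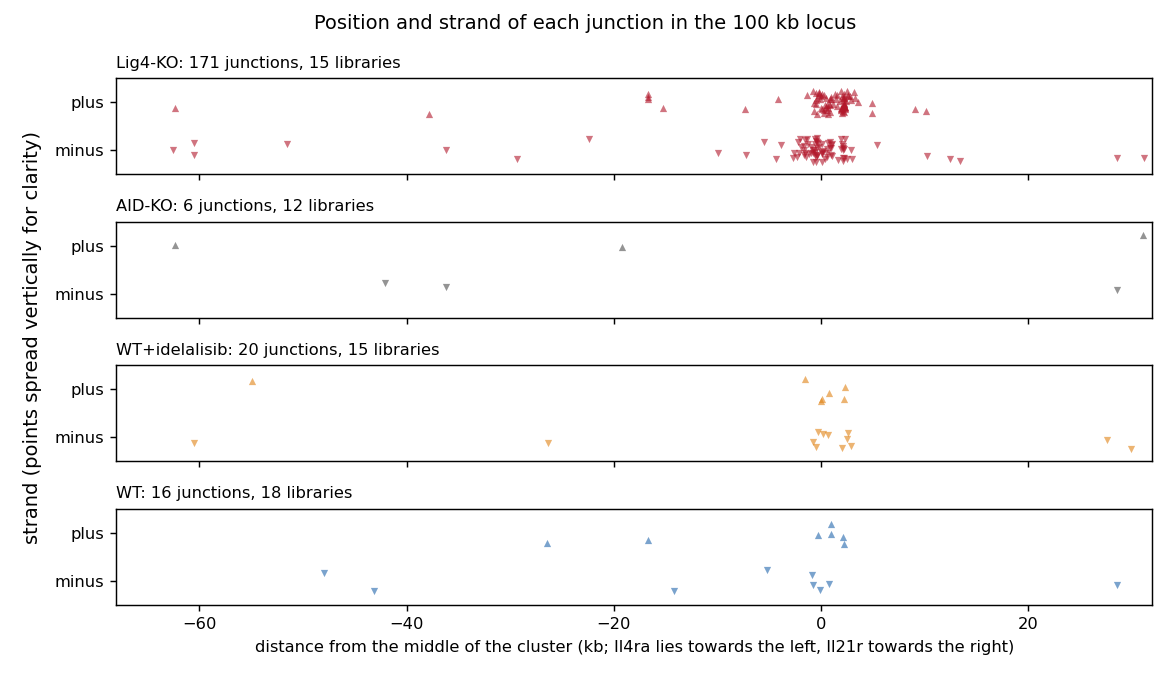
Each of the 213 junctions of the locus by its distance from the middle of the cluster (horizontal axis, kb) and strand (rows within a panel), with 1 panel per background. The points of Lig4-KO, WT+idelalisib and WT pile up within 3 kb of the middle, and none of the 6 AID-KO points lies there.

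The cluster lay at similar positions in the 3 backgrounds that showed it. Its median position was 132748604 in Lig4-KO, 132748644 in WT+idelalisib and 132748814 in WT. The middle 50% of its junctions spanned 2559 bp in Lig4-KO, 2472 bp in WT+idelalisib and 1336 bp in WT, the last from 9 junctions. In Lig4-KO the median position was 132748619 with tazemetostat, 132748723 with valemetostat and 132748480 with DMSO, from 26, 48 and 63 junctions. Its rate in these groups was 3.66 ± 1.29 with tazemetostat, 6.18 ± 1.32 with valemetostat and 9.0 ± 3.17 with DMSO (SD, n = 5 each). The cluster held 65% of the locus junctions with tazemetostat, 85.7% with valemetostat and 84% with DMSO.

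The cluster was not built on a few repeated positions. The 213 junctions of the locus lay at 199 positions, of which 12 were seen in 2 or more libraries and none in more than 3. That leaves no junction of the locus at a position that recurs in 10 or more libraries of the series. No library listed the same position and strand more than 1 time in the locus. The same held for all genome-wide junctions, so it is a trait of the lists and not of the cluster. Neighbouring cluster junctions were a median of 16 bp apart, with 326 bp as the largest gap. In bins of 500 bp the counts had a broad part, with 18 to 23 junctions in each bin from 132747000 to 132748999, then 6 and 10, and a narrow maximum of 36 at chr7:132750000-132750499.

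Plus and minus strands were used about equally over the locus but not at the same places. Of the 213 junctions, 101 were on the plus strand and 112 on the minus strand (47.4% plus, exact binomial 95% interval 40.6% to 54.4%), and genome-wide 50% were on the plus strand. In the cluster of Lig4-KO, 14 of 50 junctions below its middle (position 132748000) were on the plus strand (28.0%, 95% interval 16.2% to 42.5%), against 55 of 87 above it (63.2%, 95% interval 52.2% to 73.3%). The intervals are exact binomial and cover counting error only.

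The shift between strands was also looked at library by library, where the counts are small. The median plus-strand position in the Lig4-KO cluster was 132749314 and the median minus-strand position 132747660. The plus-strand median was the higher in 14 of 15 Lig4-KO libraries, by a median of 1404 bp over the 15. The exception, Lig4-KO DMSO replicate 4, had 5 plus-strand junctions and 1 minus-strand junction there. Libraries with the common direction could be as thin. Lig4-KO tazemetostat replicate 3 had 2 plus-strand junctions and 1 on the minus strand. Lig4-KO valemetostat replicate 4, with the largest difference of 3155.5 bp, had 8 and 1. The difference was only 129.5 bp in Lig4-KO DMSO replicate 1 and 168.5 bp in Lig4-KO tazemetostat replicate 4. The maximum at chr7:132750000-132750499 held 26 plus-strand and 10 minus-strand junctions, and the 6 junctions below 132746000 were all on the minus strand. In WT the strand medians differed by 1442 bp in the same direction and in WT+idelalisib by -202 bp, from 9 junctions in WT and 15 in WT+idelalisib.

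Strand shares over the whole locus in Lig4-KO were 40.0% plus with tazemetostat, 62.5% with valemetostat and 44.0% with DMSO (16 of 40, 35 of 56 and 33 of 75 junctions). Their exact binomial 95% intervals were 24.9% to 56.7%, 48.5% to 75.1% and 32.5% to 55.9%, so all 3 overlapped. By library the share was 33.3% to 50% with tazemetostat, 50% to 80% with valemetostat and 35% to 75% with DMSO. These were looked at after the positions and were not tested.

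**Figure D5:**
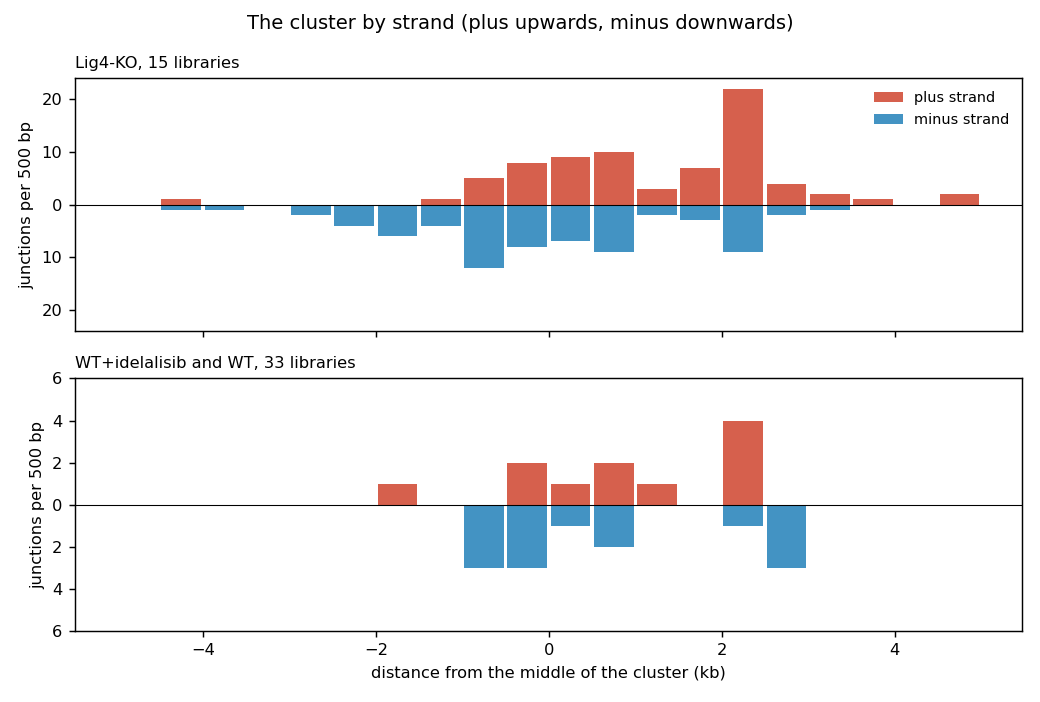
Junctions per 500 bp around the middle of the cluster (horizontal axis, kb), with plus-strand junctions drawn upwards and minus-strand junctions downwards, for Lig4-KO and for WT+idelalisib and WT together; the vertical scales differ. In Lig4-KO minus-strand bars extend further left, and the tallest plus-strand bar stands 2 to 2.5 kb right of the middle.

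A few other windows had a pattern over the 12 groups much like that of the locus. Likeness was the Pearson correlation of log2(group mean rate + 0.5) over the 12 groups, among 579 other windows of the fit. The 5 highest were chr8:129080000-129179999 (r = 0.940), chr8:87480000-87579999 (r = 0.915), chr10:18680000-18779999 (r = 0.915), chr11:66880000-66979999 (r = 0.907) and chr13:21780000-21879999 (r = 0.903). The points share libraries and depth, and the 3 Lig4-KO groups stand apart in each, so r is a description and no p is given.

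Inside Lig4-KO the order of the means varied among these windows. The first had 44.5 junctions per 10000 with tazemetostat, 39.8 with valemetostat and 32 with DMSO, and the fifth 15.1 with tazemetostat, 12.7 with valemetostat and 8.95 with DMSO. Tazemetostat was above DMSO also in the window on chromosome 10, at 25.7 with tazemetostat, 21.3 with valemetostat and 16.4 with DMSO. The same held in the second window, at 26.2 with tazemetostat, 25.7 with valemetostat and 19.99 with DMSO. In the window on chromosome 11 tazemetostat was about level with DMSO, at 13.1 against 13.2. Valemetostat was the lowest there, at 9.36, whereas tazemetostat was the lowest at the locus. At the Il4ra-Il21r locus the means were 5.65 with tazemetostat, 7.21 with valemetostat and 10.7 with DMSO. In the Lig4-KO comparison of tazemetostat with DMSO, 39 of the 580 windows had a fold change as low as that of the locus or lower, itself included. That rank moved with the fit. At a mean tally of at least 2 the locus was the lowest of 84 windows. The count was 40 of 580 with TMM scaling, 18 of 580 with an offset in proportion to depth, and 382 of 3703 with only these groups in the fit. The locus was not called in any of these fits. The difference between the locus and the windows most like it was not tested.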

How the data were processed

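The authors deposited for each of the 60 libraries a list with 1 line per junction, holding chromosome, position, read name, a score and strand. Positions refer to mm9, per the submitters' processing notes, and aligner, caller and filter settings were not given in the sources used here, so how repeated reads were collapsed is unknown. The deposited score has no stated meaning and was not used. Whether positions start at 0 or 1 is not stated. The immunoglobulin loci were written from knowledge. All 60 lists differed.

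Junctions in the locus were divided by the genome-wide junctions of the library. Group means were set against each other with exact two-sided permutation tests, joined contrasts by permutation within strata (100000 resamples), and locus and flanks by exact sign-flip tests, with Benjamini-Hochberg adjustment within each family of 8, 3, 4, 5 and 4 tests and a threshold of 0.05 (Python 3.11.15, numpy 2.4.6, pandas 2.3.3). Window tallies, on a grid shifted by 80 kb so that the locus is 1 window, were fitted with limma 3.58.1 (voom, R 4.3.3) on all 60 libraries with genome-wide junctions as library size, a mean tally of at least 1 and 12 group means. For 7 of 15 comparisons the value of the locus in this fit is not reported, since the locus was under that minimum in their own groups. Values of the locus from refits of some of these 7 are given under the dependence on processing. Those values rest on a locus that Lig4-KO brought into the fit. Ratios of pooled rates have exact 95% intervals, and these, binomial intervals and the allowance of 3 junctions at a count of 0 cover counting error only. The tests were also run on simulated data, but these did not include flanks wider than the locus or the choice of windows by tally. Replicate numbers did not pair libraries: correlations of same-numbered deviations ran from -0.0857 to 0.122. Il4ra, Il21r, the windows most like them and the highest 1 kb bins are named, by a written rule. The locus and lists were chosen with earlier results of these data known. Alternatives covered the denominator, duplicates, edges, recurrent positions, runs, replicate block, scaling, filters and each library left out. Other genes of the pathway were not analysed here, since no mm9 annotation was used.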

Additional observations from a re-analysis of the deposited data

Results flagged for a closer look

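Dixon's criterion singled out 2 libraries among 11 groups. In both groups every other library was at 0, where any library with a junction is singled out, so the usual chance rate of about 1 in 20 groups does not hold for them. AID-KO tazemetostat replicate 1 had a rate of 2.56 in the locus while the other 3 libraries of its group had 0. AID-KO DMSO replicate 5 had 0.800 while the other 4 had 0. These rest on 2 junctions and 1 junction, and none of the 3 lay in the 6 kb cluster. AID-KO DMSO replicate 5 was also the only DMSO library of run 3.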

How the results depend on the processing

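Directions and calls were the same in all refits with a denominator of all junctions outside the bait window and with flanks of 200 kb. They were also the same without recurrent positions, where only the denominator could change, since no junction of the locus lay at such a position. Counting identical junctions once changed no count, since no library listed a genome-wide position and strand more than 1 time. That refit could not differ and says nothing about robustness. With the locus widened by 20 kb, AID-KO DMSO against WT DMSO passed (-1.25, exact permutation test, adjusted p = 0.0238), and uncalled differences changed sign for WT tazemetostat against DMSO (-0.18) and AID-KO tazemetostat against valemetostat (0.557). Within 1 run AID-KO valemetostat against DMSO was -0.079. With the replicate number as a block, the mean of the paired differences for Lig4-KO DMSO against WT DMSO was 9.84 with adjusted p = 0.188 by the exact sign-flip test, which with 5 pairs cannot go below 0.0625 before adjustment. Under the block AID-KO tazemetostat against valemetostat was 0.131 and the limma log2 value of AID-KO valemetostat against DMSO was -0.025. Since the numbers did not pair the libraries, they share only a number.

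In the window fit, TMM scaling turned WT tazemetostat against valemetostat to 0.10 and AID-KO tazemetostat against valemetostat to -0.26, and an offset in proportion to depth, chosen after seeing the data, turned the second to -0.40. None of these was called. Windows called under TMM were 125 for Lig4-KO against WT, 50 for AID-KO against WT, 14 for WT+idelalisib against WT, 7 and 5 for tazemetostat and valemetostat in Lig4-KO, 5 for valemetostat in WT and 8 for tazemetostat against valemetostat in WT, against 44, 29, 3, 4, 0, 3 and 1. With a mean tally of at least 2, which left 84 windows in place of 580, they were 13 for WT+idelalisib against WT, 7 and 2 for the compounds in Lig4-KO, and 8 for the WT pair of compounds. With limma trend they were 5 for WT+idelalisib against WT and 6 for the WT pair. With the block they were 1 for valemetostat in WT, 2 for valemetostat in Lig4-KO and 5 for the WT pair. With the offset they were 3 and 8 for tazemetostat and valemetostat in WT, 0 for tazemetostat in Lig4-KO (4 by voom), 5 for WT+idelalisib against WT and 9 for the WT pair. With only the groups compared they were 1 of 522 in WT+idelalisib given valemetostat, and in Lig4-KO 13 of 3703 for tazemetostat and 5 of 4040 for valemetostat. There the locus gave no value in the 7 comparisons whose groups fell below the minimum (all those with AID-KO, WT+idelalisib against WT, and both compounds against DMSO in WT), so window values given here for these rest on a locus that Lig4-KO brought into the fit. The cause of these shifts was not tested.

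Each library was left out in turn, in 476 refits, of which 456 kept direction and call and 20 changed the sign of an uncalled difference. Rate differences then ranged from -0.16 to 0.692 for AID-KO tazemetostat against DMSO, -0.72 to 0.295 for AID-KO tazemetostat against valemetostat, -0.023 to 1.04 for WT tazemetostat against DMSO, -0.92 to 0.0262 for WT tazemetostat against valemetostat and -0.92 to 0.154 for WT+idelalisib tazemetostat against DMSO. For AID-KO against WT in DMSO the range was -0.97 to -0.25, and for WT+idelalisib against WT in DMSO 0.429 to 1.27. Window values ranged from -0.24 to 0.48 for AID-KO tazemetostat against DMSO, -0.36 to 0.78 for AID-KO tazemetostat against valemetostat, -0.50 to 0.64 for AID-KO valemetostat against DMSO and -0.46 to 0.049 for WT tazemetostat against valemetostat. Lig4-KO DMSO against WT DMSO stayed between 9.01 and 11.04 (exact permutation test, adjusted p up to 0.0476), and Lig4-KO tazemetostat against DMSO between -6.30 and -4.26 (adjusted p from 0.0635 to 0.254 by the same exact test). Outside Lig4-KO the depth, with 42 junctions in 45 libraries, limits every comparison.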
